A study of Mus musculus with 9 samples.

Results

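Igf1 (ENSMUSG00000020053), the gene of insulin-like growth factor 1, was followed as 1 gene of the 311 in a count table from RAW264.7 cells. RAW264.7 is a mouse macrophage-like tumour line grown in culture. The study transfected these cells with mimics of the microRNA let-7c-5p, or treated them as a negative control, to see what let-7c-5p does to macrophage polarization and function. The control group had 4 libraries and the let-7c-5p group 5, labelled as biological replicates, and the labels name no other agent, dose or time. The row was taken by its gene name, and Igf1 was chosen by its counts in these same libraries, which differed between the groups. Its difference is therefore given as a description, with no p-value.

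IGF1 is a small secreted hormone and local growth factor. It binds the IGF1 receptor, a tyrosine kinase that acts through insulin receptor substrates on the PI3 kinase to AKT and the RAS to MAP kinase pathways. Binding proteins hold it in blood and tissue. The liver makes most of the circulating hormone, while macrophages make it locally in healing muscle, skin and other tissues, where it is known as a repair factor. The let-7 microRNAs lower the messenger RNAs that pair with their seed, bases 2 to 8, and several genes of the insulin and IGF pathway are known let-7 targets.

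The mature let-7c-5p and the only let-7 seed match in the annotated Igf1 3′ untranslated regions (UTRs) are shown because they are the sequences through which the mimic could pair with the messenger directly. Capitals mark the seed in the microRNA and the matching bases in the messenger, both written 5′ to 3′.
let-7c-5p: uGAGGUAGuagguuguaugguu
Igf1 site: gggggcaatatgtcatctacCTACCTCAaa
The microRNA sequence is from RefSeq (GRCm38.p6), which places it on the plus strand at chr15:85706616-85706637 and again at chr16:77599672-77599693. The match is an 8mer, CTACCTCA, which pairs with all of the seed and has an A opposite base 1. It lies on the plus strand at chr10:87932094-87932101 (GRCm38), in the 3′ UTR of the transcript Igf1-202 of GENCODE release M21, the annotation used here for sequence. The sources used here do not give the authors' build.

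The match was in 1 of the 7 Igf1 transcripts with a complete annotated 3′ end. Igf1-202 has a 3′ UTR of 6308 bases, and the match covers bases 1360 to 1367 of it, 4941 bases before the end of the transcript. The next longest 3′ UTR, of Igf1-203, is 1101 bases and stops short of that distance. The other 5 have 3′ UTRs of 159 to 453 bases. No 6-base or longer seed match was found in these 6 shorter 3′ UTRs on the messenger strand. The counts are per gene, so they do not show which Igf1 transcripts the cells made.

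**Figure D1:**
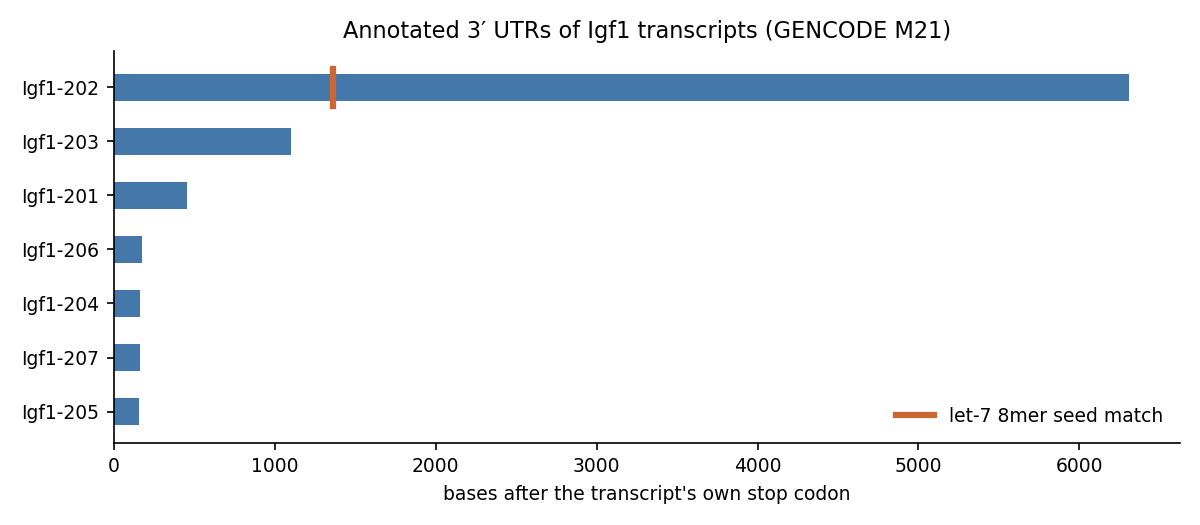
Length in bases of the annotated 3′ UTR of each of the 7 Igf1 transcripts, measured from the stop codon of that transcript, with the let-7 8mer seed match as an orange bar. The match lies at base 1360 of the 6308-base 3′ UTR of Igf1-202, beyond the 1101 bases of the next longest.

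Long 3′ UTRs often hold such a match. The strict motifs searched on the messenger strand were the 8mer and the 7mer-m8, CTACCTC, which lies inside the 8mer and was counted only where no 8mer was present. Over 21024 annotated genes, taking the longest 3′ UTR of each, 9.02% held at least 1 of them and 3.06% held an 8mer. Among the 572 genes whose 3′ UTR was within 20% of the Igf1 length, 33.2% held at least 1 and 12.6% held an 8mer. The Igf1 match is thus a description of its sequence and was not tested as a site of let-7 action.

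The Igf1 counts were 2, 6, 3 and 3 in control replicates 1 to 4. They were 42, 27, 23, 48 and 30 in let-7c-5p replicates 1 to 5. The groups did not overlap, and the lowest let-7c-5p library had 3.83 times the count of the highest control library. Counting error alone gives control replicate 2, the highest control, a 95% exact Poisson interval of 2.20 to 13.1, and let-7c-5p replicate 3, the lowest of its group, one of 14.6 to 34.5. These intervals leave out the differences between cultures and depths.

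The control mean was 3.5 ± 1.73 counts (SD, n = 4). The let-7c-5p mean was 34 ± 10.6 counts (SD, n = 5), a ratio of 9.71. More cells with Igf1 RNA and more Igf1 RNA per cell cannot be told apart in these bulk libraries. The whole control group rests on 14 Igf1 counts and the let-7c-5p group on 170, so the control level sets the precision of any fold.

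**Figure D2:**
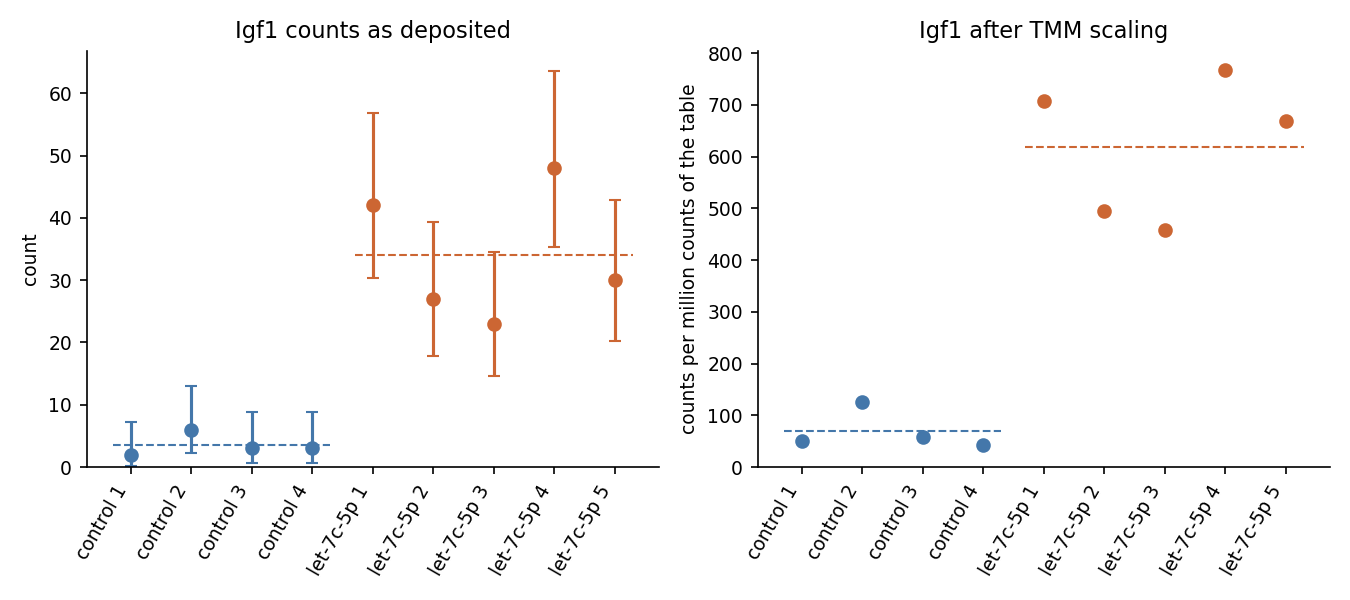
Left, the deposited Igf1 count of each library with its 95% exact Poisson interval; right, the same after TMM scaling, in CPM of the table. Dashed lines are group means, 3.5 and 34 counts on the left, and the controls (blue) lie below the let-7c-5p libraries (orange) on both scales.

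The sequencing depth of the libraries is unknown here. The table held only genes that already differed between the groups about 2-fold or more, and its column totals were 40655 to 50083 counts in the control and 43241 to 83053 with let-7c-5p. Gm10123, Gm6061 and Rpl17 held 29.3% to 35.7% of the control totals and 48.0% to 71.9% of the let-7c-5p totals. Whether their reads were shared with near-identical copies was not tested. All scaled values of Igf1 are thus relative to the other genes of this selection. The defining markers of macrophages (12 genes), fibroblasts (8 genes) and hepatocytes (6 genes) were not among the 311 genes, so neither the cell type nor an admixture of other cells could be checked with them.

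After TMM scaling, which uses the trimmed mean of the gene ratios, Igf1 stood at 43.0 to 126 CPM in the control (counts scaled to a common total, here that of the tested genes), with a mean of 69.0 ± 38.6 (SD, n = 4). It stood at 457 to 768 CPM with let-7c-5p, with a mean of 619 ± 136 (SD, n = 5). Control replicate 2 was the highest of its group on this scale as well. Among the let-7c-5p libraries, replicate 4 was highest at 768, followed by replicate 1 at 707, replicate 5 at 669, replicate 2 at 494 and replicate 3 at 457. That order depended on the scaling. With column totals replicate 5 was the lowest of its group at 361, and replicate 2 was the second highest at 624. Even so, each let-7c-5p library stayed above each control library, the highest of which was replicate 2 at 128.

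In the edgeR fit across the whole table, the Igf1 log2 fold change, let-7c-5p over control, was 3.16 ± 0.37 (SE). This is 8.95-fold, or 6.92-fold to 11.6-fold at 1 SE to either side. It was the highest log2 fold change of the 149 genes that passed the filter on low counts. Of these genes 99.3% were called at an adjusted p under 0.05 by edgeR, 51% of them as higher and 48.3% as lower, which follows from the selection of the table, so a call says little for any gene. The groups did not overlap in the deposited counts of 63.8% of the tested genes, and in 38.3% in the same direction as Igf1.

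The scaling moved the fold of Igf1 about as much as it moved the other genes. With column totals the log2 fold change was 2.80, while the shared genes moved by a median of -0.35. With column totals that leave out Gm10123, Gm6061 and Rpl17 it was 3.57, while the shared genes moved by 0.42. Taken relative to these shifts, Igf1 was at 3.15 in both. The directions of the calls also moved, from 76 higher and 72 lower genes with TMM to 30 and 72 with column totals and to 89 and 49 without those 3 genes. The genes tested in these settings were 149, 149 and 159. A larger prior count in the fit, 2 in place of the edgeR default, pulled the Igf1 value down to 2.65, as the control counts are small.

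**Figure D3:**
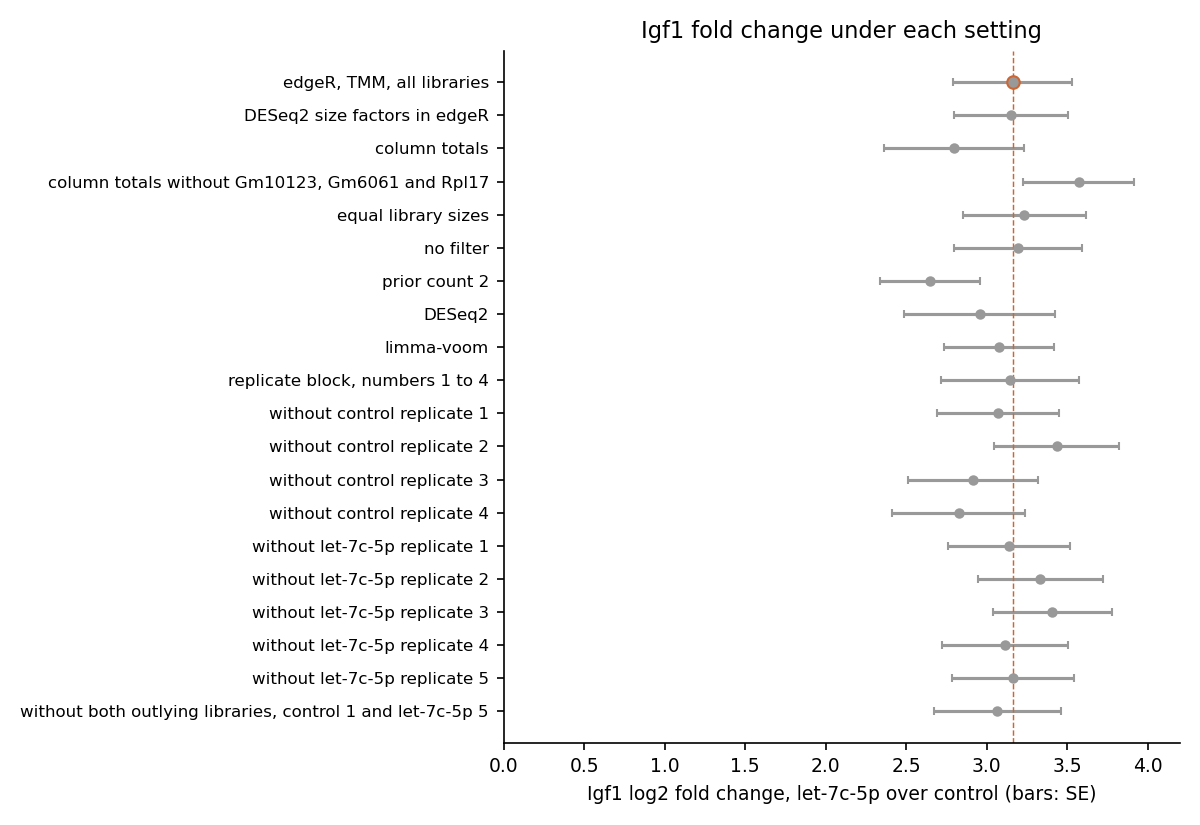
Igf1 log2 fold change, let-7c-5p over control, with its SE as bars, under the main setting (orange, 3.16) and each alternative. The values run from 2.65 to 3.57 and stay on the positive side.

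In counts, which are not levels per length, Igf1 had the lowest control mean of the 149 tested genes. It passed the filter only through its let-7c-5p libraries, so a gene in its place had to differ. Over all 9 libraries its mean was 20.4 counts, and 57 of the tested genes had a lower mean. Its share of all counts in the table was 0.00772% in the control and 0.0539% with let-7c-5p. Of the whole table, 14 genes had a larger ratio of mean counts than Igf1, and each of them had a let-7c-5p mean of at most 8.8 counts.

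Next in the order of log2 fold change among the tested genes came Azin2, Gm49864 and Col11a2. Azin2 (ENSMUSG00000028789), an antizyme inhibitor that promotes polyamine synthesis and uptake, was at 2.15 ± 0.22 (SE). Gm49864 (ENSMUSG00000117255), a predicted gene, was at 1.74 ± 0.44, and its groups overlapped at 8 counts. Col11a2 (ENSMUSG00000024330), a fibrillar collagen chain, was at 1.65 ± 0.37. The median over the 76 genes called higher was 1.10, and Igf1 and Azin2 were the only tested genes above 2.

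**Figure D4:**
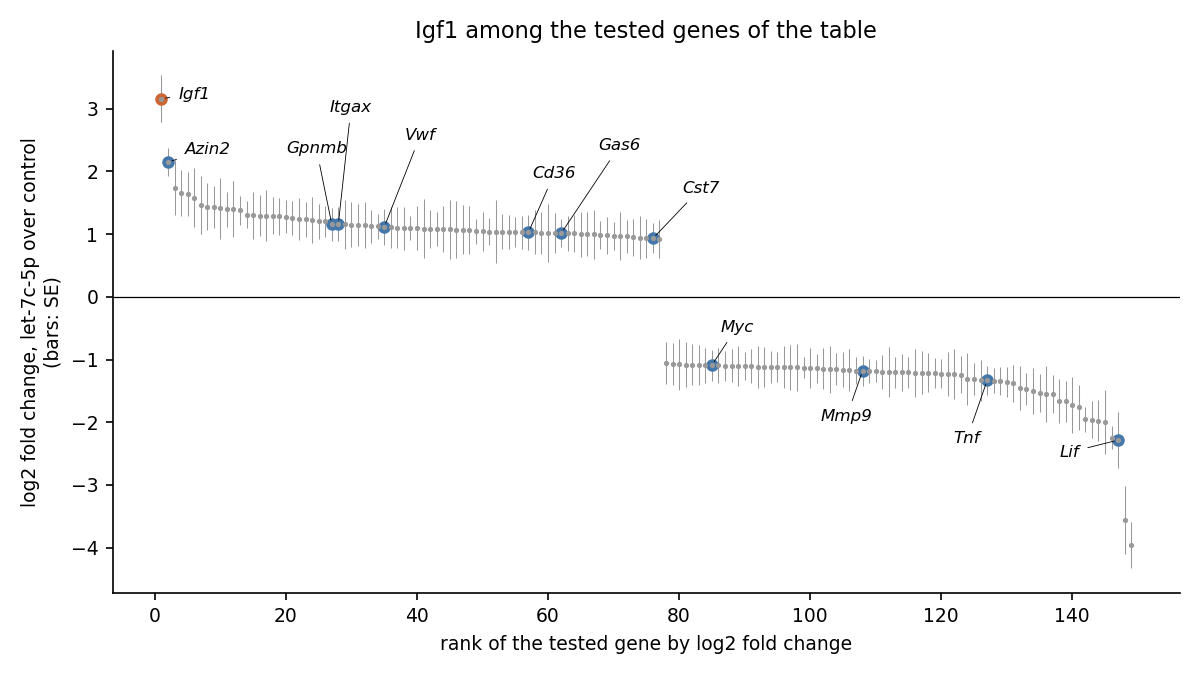
Log2 fold change, let-7c-5p over control, of the 149 tested genes in order, with SE as bars. Igf1 (orange, 3.16) is at the top, Azin2 follows at 2.15, and the listed genes (blue) lie along both arms. The empty band around 0 is the selection of the table.

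Per length of annotated exons, Igf1 was among the lower of the listed genes. It had 0.353 counts per kilobase in the control and 3.43 with let-7c-5p, over 9904 exon bases. Gpnmb had 466 and 1106 counts per kilobase, and Tnf had 5587 and 2318. With let-7c-5p, Igf1 per kilobase was still below Itgax at 6.45 and Cd36 at 9.69. These levels use all annotated exons, so a gene made mainly as a short transcript appears lower than it is.

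None of the other listed parts of the IGF system could be followed. Of 20 listed ligands, receptors, binding proteins and binding-protein proteases, 1 was in the table, Igf1 itself. Of 42 listed adaptors, kinases, phosphatases and transcription factors downstream of the receptor, 0 were in the table. The receptor Igf1r, the related receptor Insr and the substrate Irs2, all known let-7 targets, were among the genes not analysed here. Of 32 published let-7 targets in growth control, 1 was in the table: Myc (ENSMUSG00000022346), a growth-promoting transcription factor. Myc had 69, 109, 85 and 79 counts in the control and 32, 48, 43, 46 and 43 with let-7c-5p, and it fell by 1.09 on the log2 scale (SE 0.25). Of all tested genes, 48.3% were called lower. Myc was not among the genes of the table found with a strict let-7 seed match, and its fall was not tested as let-7 action.

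Igf1 is also one of the genes that microglia in diseased brain express together with lysosomal, lipid-handling and phagocytic genes. Of the other 22 genes listed for that program, 5 were in the table, and those 5 were called higher, as were 51% of all tested genes. Their groups did not overlap in the deposited counts, which held in the same direction for 38.3% of all tested genes. The median log2 fold change of these 5 was 1.03, below the 1.10 over all 76 genes called higher. The list was drawn up with earlier results of these data known, so its direction is no independent evidence.

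Gpnmb (ENSMUSG00000029816), a lysosome-associated glycoprotein, had 3035, 3144, 3024 and 2927 counts in the control and 6287, 6453, 7219, 8310 and 7748 with let-7c-5p. Cst7 (ENSMUSG00000068129), cystatin F, an inhibitor of lysosomal proteases, had 453, 389, 338 and 354 in the control and 705, 733, 776, 855 and 868 with let-7c-5p. Gas6 (ENSMUSG00000031451), a ligand of phagocyte receptors that bind dying cells, had 163 to 188 in the control and 318 to 447 with let-7c-5p. In these genes each let-7c-5p library was above each control library. The integrin Itgax (ENSMUSG00000030789), also listed as a dendritic cell marker, had 9 to 18 and 24 to 36 counts. The scavenger receptor Cd36 (ENSMUSG00000002944) had 9 to 22 and 25 to 50 counts. The log2 fold changes were 1.16 for Gpnmb and Itgax, 1.03 for Cd36, 1.01 for Gas6 and 0.93 for Cst7, with SE of 0.22 to 0.28, each below the 3.16 of Igf1. With column totals Itgax (0.80) and Cd36 (0.62) were no longer called, while Gpnmb, Gas6 and Cst7 were. Over all 149 tested genes, 30 were called higher in that setting, against 76 with TMM.

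Among 37 listed growth and repair factors that macrophages can make, 3 were in the table, and they did not share a direction. Igf1 and Gas6 were called higher, as were 51% of all tested genes. Lif (ENSMUSG00000034394), a cytokine of the interleukin 6 family, fell by 2.28 (SE 0.45), from 41, 47, 29 and 27 counts to 6, 2, 8, 7 and 16. Its groups did not overlap, as in 63.8% of all tested genes in either direction. Lif and Igf1 lay near opposite ends of the fold order, at positions 147 and 1 of 149. Of 25 listed markers of alternatively activated macrophages, the M2-type state often linked to Igf1, 1 was in the table. It was Myc, which was called lower, as were 48.3% of all tested genes.

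Of 25 genes listed as signals or factors acting on Igf1 in macrophages or liver, 2 were in the table. Tnf (ENSMUSG00000024401), a central inflammatory cytokine, was called lower, at -1.33 ± 0.23 (SE) on the log2 scale. Over all tested genes 48.3% were called lower. Csf2 (ENSMUSG00000018916), the granulocyte-macrophage colony-stimulating factor, had 8, 6, 3 and 4 counts in the control and 0 in each let-7c-5p library, and it was below the filter. Markers of other cell types with any gene in the table were few. Of 6 endothelial markers, Vwf and Tie1 were present, and their summed counts were 14 to 18 in the control and 26 to 44 with let-7c-5p. Of 8 osteoclast markers, Mmp9 was present, with 57 to 78 and 21 to 36 counts. Of 6 dendritic cell markers, Itgax was present. The part of other cell types in the Igf1 difference was not tested.

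Igf1 was next set beside the other genes of the table with a strict let-7 seed match. Of 186 genes of the table with an annotated complete 3′ UTR, 13 held at least 1, or 6.99%, against 9.02% of all annotated genes. Of these 13, 6 passed the filter, and 4 of them, Igf1 included, were called higher and 2 lower. Over all tested genes 51% were called higher and 48.3% lower, so the seed genes are not set apart by these counts. The groups did not overlap in the 4 higher genes, as in 38.3% of all tested genes in that direction. Besides Igf1 these were Xirp1 (ENSMUSG00000079243), an actin-binding protein of muscle, at 1.64 ± 0.35 (SE), Hal (ENSMUSG00000020017), which breaks down histidine, at 1.10 ± 0.33, and Abcb9 (ENSMUSG00000029408), a lysosomal peptide transporter, at 1.04 ± 0.28. With column totals Hal (0.70) and Abcb9 (0.68) were no longer called. In that setting the genes called higher fell from 76 to 30 of the 149 tested. Xirp1 had 4 to 7 counts in the control and 15 to 20 with let-7c-5p.

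The lower genes were Pou2f2 (ENSMUSG00000008496), a transcription factor of B cells and macrophages, at -1.33 ± 0.20 (SE), and Tnfaip3 (ENSMUSG00000019850), which encodes the NF-kappaB inhibitor A20, at -1.13 ± 0.17. Pou2f2 had 905, 1149, 1199 and 1247 counts in the control and 593, 511, 487, 514 and 272 with let-7c-5p. It held 2 strict matches, 2 matches to seed bases 2 to 7 with an A opposite base 1, and 1 match to bases 2 to 7 alone. Its 3′ UTR, at 5619 bases, is the nearest in length to that of Igf1 among the 6.

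The 8mer of Igf1 was the only one among the 111 tested genes with an annotated complete 3′ UTR. An 8mer was also found in Best2 and Thrsp, both below the filter. Thrsp (ENSMUSG00000035686), a gene of lipid synthesis, had 0, 1, 1 and 0 counts in the control and 3, 4, 3, 2 and 6 with let-7c-5p. Best2 (ENSMUSG00000052819), an anion channel gene, had 1 count over the control libraries and 2, 3, 4, 0 and 5 with let-7c-5p. The mean of all 3 genes with an 8mer was thus higher with the mimic, in a table that holds only genes already different. In the fit without the filter, 170 of all 311 genes were higher. Igf1 was chosen for its difference, Best2 and Thrsp had few counts, and the Best2 groups overlapped. The shared direction of the 3 genes thus says little.

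The longest annotated Igf1 transcript, Igf1-202, has a long 3′ UTR poor in G and C. Of the 111 tested genes with an annotated complete 3′ UTR, 1 had a longer one. The GC content of Igf1-202 was 38.0%, and none of the other tested higher genes in this set of 59 had a lower value in its own transcript. Their median with Igf1 included was 56.4%, while that of the 52 lower genes was 42.7%. The other 6 Igf1 transcripts had a GC content of 41.1% to 51.3% and 3′ UTRs of 159 to 1101 bases, and the counts do not show which were made. The overlap with the antisense gene Igf1os, which lies on the other strand at the start of Igf1, covered 0 exon bases, and Igf1os was not in the table.

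The 5 tested genes with profiles most like that of Igf1 were found by the mean absolute difference over the 9 libraries of log2 CPM, each gene taken relative to its control mean. A prior count of 2 was added, which narrows the folds of low genes. Azin2 was the nearest, at a mean difference of 0.44, against a median of 1.34 over the other 148 tested genes. Col11a2 followed at 0.82, the predicted gene Gm45702 (ENSMUSG00000110483) at 0.84, Amh (ENSMUSG00000035262), the anti-Müllerian hormone, at 0.85, and Atp2a1 (ENSMUSG00000030730), a calcium pump, at 0.88. The sixth gene was at 0.91, so the last 4 places are not set off from the rest.

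Azin2 had 160, 164, 166 and 161 counts in the control and 673, 783, 660, 1206 and 596 with let-7c-5p. Its highest let-7c-5p library, replicate 4, was also the highest for Igf1. In Col11a2, by contrast, replicate 5 was the highest at 336 counts, with 96 to 149 in the other let-7c-5p libraries. Amh overlapped between groups, since control replicate 3 had 19 counts and let-7c-5p replicate 1 had 16. Gm45702 overlapped as well, since control replicate 2 had 17 counts and let-7c-5p replicate 2 had 16. Atp2a1 did not, with 3 to 11 counts in the control and 15 to 27 with let-7c-5p. The likeness mostly reflects a large difference between the groups, which each of these genes shares with Igf1.

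**Figure D5:**
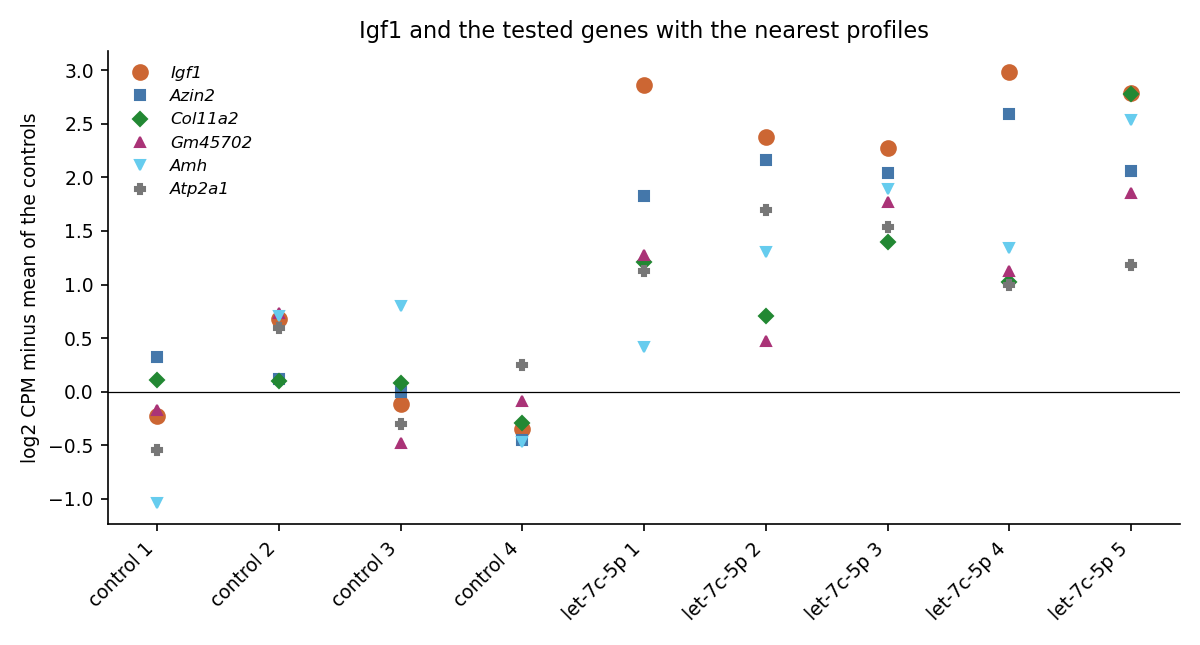
Log2 CPM of Igf1 (orange circles) and of the 5 tested genes with the nearest profiles in each library, relative to the control mean of the gene. Igf1 lies 2.28 to 2.98 above its control mean in the let-7c-5p libraries, and Azin2 lies nearest, at 1.83 to 2.59.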

How the data were processed

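RNA of 9 cultures was sequenced. The deposited values are raw read counts, whole numbers with no normalization, and the submitters' processing notes name FastQC 0.11.9, HISAT2 2.1.0, HTSeq 0.11.2, R 4.3.2 and DESeq2 1.4.2. The build, the annotation, the strand setting and the rule by which the 311 genes were selected do not appear in the sources used here. Groups came from the sample titles. The counts were fitted in edgeR 4.0.16 (R 4.3.3) with TMM scaling, filterByExpr (minimum count 10) and a two-sided quasi-likelihood test of group without covariates, with Benjamini-Hochberg adjustment over all tested genes and calls at an adjusted p under 0.05. SE is the absolute log2 fold change over the square root of F. The step was run on simulated counts in which some genes were left unchanged, unlike in this selected table. That run therefore does not show how the fit behaves on such a selection. The p-values set the group difference against the spread between replicates of 1 cell line. Replicates were not identical (chi-square per degree of freedom 2.51 to 85.3). Alternatives were DESeq2 1.42.0, limma-voom 3.58.1, other scalings, no filter, a prior count of 2, a replicate block and leaving out libraries. Seed matches came from GENCODE M21, in which 295 of 311 gene IDs were found. Named genes are Igf1, the list members in the table, the genes next to Igf1 in fold (none lay above, 3 below), the 5 nearest profiles, genes with a strict seed match, and Gm10123, Gm6061 and Rpl17. Igf1 and the lists were chosen with earlier results of these data known.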

Additional observations from a re-analysis of the deposited data

Results flagged for a closer look

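Igf1 itself had no library set far from the others of its group. The gap of its most separate library was 0.75 of the range in the control, below Dixon's critical value of 0.829, and 0.24 with let-7c-5p, below 0.71. Over the 68 groups of libraries checked for the named genes, 4 had such a library. Chance would give about 3.4 for continuous values. Small whole counts do not meet that condition, so nothing is concluded from the comparison. Col11a2 had 336 counts in let-7c-5p replicate 5, against 96 to 149 in the others. Rpl17 had 8888 counts in control replicate 2, against 3104 to 4018. Tie1 had 2 counts in control replicate 2, against 1 in each other control library. Best2 had 1 count in control replicate 3, against 0 in the others.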

How the results depend on the processing

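The Igf1 log2 fold change stayed positive under the 19 alternatives run, and Igf1 had the highest value of the fitted genes in 17 of them. Without the filter it was at position 12 and with DESeq2 at position 11 of 311. It moved by more than the spread between replicates, from 3.16 to 3.57 when the column totals left out Gm10123, Gm6061 and Rpl17, and to 2.65 with a prior count of 2. Leaving out each library in turn gave 2.83 to 3.44. The calls over the table then ran from 131 of 136 tested genes to 164 of 168, against 148 of 149. They did not simply follow the number tested. Without control replicate 2, 3 or 4, more genes were tested and fewer were called, at 142 of 163, 142 of 161 and 140 of 160. The table had 311 calls without the filter and 237 with DESeq2. Both took in the genes below the filter, and DESeq2 also changed the test and the scaling, with a median shift of -0.24. On the same 311 genes 170 were higher without the filter and 96 with DESeq2, and the cause was not tested. Without the filter 9 members of the gene lists other than the cell type markers were called besides Igf1, as were 311 of 311 genes. The main fit called 8 of these members, with 148 of 149 genes called. With column totals 6 were called, with 102 of 149 genes called. Without control replicate 1 and let-7c-5p replicate 5, a choice made after seeing the data, Igf1 was at 3.07 with 158 calls of 164 tested genes. The replicate block on numbers 1 to 4 gave 3.15 for Igf1 and 140 calls of 143 tested genes. Same-numbered libraries correlated at -0.23 to 0.03 in their deviations, and 0 of 4 controls correlated best with their own number. The numbers were therefore not taken as pairs. The strict seed match was 1 in Igf1-202, and 0 in each of the transcripts Igf1-201, Igf1-203, Igf1-204, Igf1-205, Igf1-206 and Igf1-207. Of the 5 nearest profiles, 5 were shared with column totals and 4 with a prior count of 0.5. With 14 control counts in all, the depth of Igf1 in the control limits the precision of its fold.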
